A study of Mus musculus with 18 samples.

Results

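The subject is the difference between choroid and retina in how strongly each gene's RNA was enriched by an endothelial pull-down. For each gene it is the log2 ratio of positive to input in choroid minus the same ratio in retina, so a positive value means stronger enrichment in choroid. It rests on 12 of the 18 libraries of the study, with 3 each of choroid positive, choroid input, retina positive and retina input. Genes were joined on the gene identifier of the deposited choroid and retina tables, which left 10704 of the 13383 genes listed in at least 1 of them. A further 1014 genes were listed in choroid alone and 1665 in retina alone, and these have no difference.

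All 12 libraries came from mice labelled Tie2-cre+; NuTRAP+, the columns of the deposited tables mark all of them WT as well, and libraries without these alleles were not analysed here. Each choroid or retina sample pooled the tissue of 2 eyes, and the choroid was scraped off together with the retinal pigment epithelium. The input is lysate set aside before the pull-down with an anti-GFP antibody, and the positive fraction is the RNA that the antibody brought down. The labels state neither the sex nor the age of the mice. The labels call the samples biological replicates and give each group the numbers 421, 953 and 960, without saying whether a number marks the same mouse. Values per library are listed in the order of these numbers.

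NuTRAP is an allele that, once Cre has acted, puts a GFP tag on a ribosomal protein, so that RNA held by tagged ribosomes can be pulled out of a whole-tissue lysate. The Tie2 (Tek) promoter drives Cre in endothelial cells and also in the blood lineage, which limits the pull-down as a purely endothelial sample. The choriocapillaris, the capillary bed under the retinal pigment epithelium, is fenestrated, and its pores are bridged by diaphragms built of Plvap. Retinal capillaries form the inner blood-retina barrier, with tight junctions, selective transporters and a continuing need for Wnt/beta-catenin signals. An enrichment compares endothelial RNA with the tissue around it, so a difference in enrichment can lie in the positive fractions, in the inputs or in both. Each difference is therefore given with its positive part (choroid positive over retina positive, log2) and its input part (choroid input over retina input, log2), and it equals the positive part minus the input part. In bulk samples such as these, fewer cells of a type and less RNA per cell cannot be told apart.

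The joined genes held 2544974 to 4427582 counts per choroid positive library and 8506291 to 13931924 per choroid input library, against 6004543 to 10639209 per retina positive and 14588512 to 20605510 per retina input library. Levels are in CPM, each count divided by its library's total after scaling over the 12 libraries, and they are compared between libraries and not between genes. The tissue labels were checked against marker genes. The 12 measured markers of retinal pigment epithelium summed to 18410 to 28410 CPM in choroid inputs, against 1075 to 1165 CPM in retina inputs. The 18 rod genes summed to 1705 to 8423 CPM in choroid inputs, against 64520 to 67120 CPM in retina inputs. Some libraries stood apart. The myelin gene Mbp had 3340, 107 and 172 CPM in choroid inputs and 939, 30.5 and 68.4 CPM in choroid positives, so both choroid libraries numbered 421 were high. The pericyte gene Rgs5 had 276, 24.4 and 8.38 CPM in retina positives, where the library numbered 421 was high.

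With edgeR's quasi-likelihood test and Benjamini-Hochberg adjustment over all 10704 genes, enrichment was higher in choroid for 1475 genes (13.8% of those tested) and lower for 1966 (18.4%), at an adjusted p under 0.05. A difference of at least 1 on the log2 scale was reached by 716 of the genes higher in choroid and by 1544 of the genes lower in choroid. Scaling by library size alone, without the TMM factors used here, gave 640 higher and 3003 lower and moved the median difference over all genes to -0.34, against -0.03 with TMM. Higher genes thus made up 17.6% of the calls under that scaling and 42.9% with TMM. The called counts of each gene list are to be read against the shares of all genes tested, 13.8% higher and 18.4% lower. The calls can be divided by the part that was called. Of the 1475 genes higher in choroid, 1072 had a positive part that was called higher and 495 an input part that was called lower. Of the 1966 genes lower in choroid, 996 had a positive part called lower and 1074 (54.6%) had an input part called higher. Calls in the input part alone made up a like share of both, 271 (18.4%) of the higher genes and 318 (16.2%) of the lower genes, and calls in the positive part alone were 575 (39%) and 320 (16.3%). In 1024 of the lower genes (52.1%) the input part was the larger of the 2 parts in size, against 438 (29.7%) of the higher genes. A total of 644 lower genes had higher RNA levels in choroid than in retina in both fractions. The difference between these shares was not tested, since the parts add up to the difference by construction. The shares also depend on which genes were listed. A tissue's table lists a gene only where every library of at least 1 fraction held a raw value of at least 50. A gene below this in the inputs of a tissue thus entered through its positive fraction alone, and the effect on these shares was not tested.

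**Figure D1:**
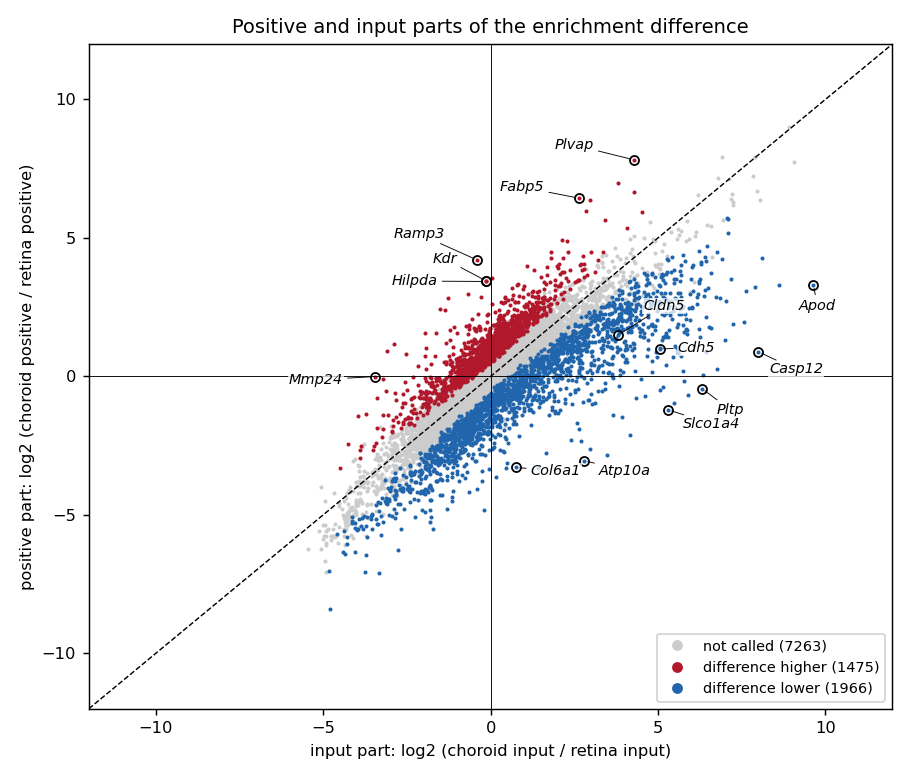
Each point is 1 of the 10704 genes, with the input part (choroid input over retina input, log2) on the x axis and the positive part (choroid positive over retina positive, log2) on the y axis. Points on the dashed diagonal have equal enrichment in both tissues; the 1475 red genes lie above it and the 1966 blue genes below it, many of the blue ones to the right of zero, where the choroid input is the higher one.

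Genes of fenestrated endothelium had the highest median difference of the lists with at least 5 measured members. Of the 9 on the list, 7 were listed in both tables and 5 of these rose in choroid relative to retina, Plvap, Kdr, Aqp1 and Ppap2a among them, with none lower. Their median difference was 2.80, against -0.03 over all genes tested. The median positive part was 4.29 and the median input part 2.13. Summed over the 7 genes, the level was 10670 to 15370 CPM in choroid positives and 1093 to 1696 CPM in choroid inputs, against 410.2 to 536 CPM in retina positives and 461 to 506 CPM in retina inputs. In retina the positive and input sums thus lay close together, but single members did not all do so. The retina pull-down enriched 3 of the 7, Igfbp3 (4.69), Nrp1 (2.31) and Ppap2a (0.54), and depleted 1, against 13% and 9.26% of all genes tested.

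Plvap (chr8:71497753-71511769, mm10), the diaphragm protein named above, had 4876, 3307 and 4236 CPM in choroid positives and 379, 232 and 305 CPM in choroid inputs, against 15.7, 22.6 and 16.9 CPM in retina positives and 18.5, 15.3 and 13.1 CPM in retina inputs. Every choroid library was above every retina library, and the retina fractions overlapped each other. The difference was 3.53 ± 0.36 (SE, adjusted p = 2.56e-05), made of a positive part of 7.82 and an input part of 4.29. The number-matched log2 ratios of positive to input were 3.68, 3.83 and 3.79 in choroid, against -0.23, 0.55 and 0.36 in retina. They did not overlap, with choroid above retina, as in 24.9% of all genes tested.

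Kdr (chr5:75933270-75978428), the main signalling receptor for VEGF on endothelium, had 1973, 1467 and 1145 CPM in choroid positives and 166, 101 and 90.8 CPM in choroid inputs. It had 200.4, 105 and 115 CPM in retina positives and 145, 114 and 132 CPM in retina inputs. The inputs of the 2 tissues overlapped, and the choroid positives stood above all other libraries. The difference of 3.58 ± 0.43 (adjusted p = 9.22e-05) therefore lay in the positive part, 3.45, with an input part of -0.13 (adjusted p = 0.714).

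Ramp3 (chr11:6658533-6677475), a partner protein that turns the calcitonin receptor-like receptor into an adrenomedullin receptor, had the highest difference of the genes named by rule, 4.61 ± 0.25 (adjusted p = 7.58e-07). Its levels were 335, 348 and 345 CPM in choroid positives and 18.9, 12.8 and 20.1 CPM in choroid inputs, against 17.7, 15.8 and 21.9 CPM in retina positives and 23.3, 24.0 and 21.6 CPM in retina inputs. Only the choroid positives were high. The water channel Aqp1 (3.48 ± 0.39, adjusted p = 5.71e-05) had a similar build, with a positive part of 3.53 and an input part of 0.05. The lipid phosphatase Ppap2a (2.80 ± 0.22, adjusted p = 4.25e-06) was higher in choroid in both fractions, with a positive part of 4.92 and an input part of 2.13.

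Igfbp3 and Nrp1, also on the fenestrated list, were not called. Igfbp3, a binding protein for insulin-like growth factors, had 3100, 2503 and 2421 CPM in choroid positives and 222, 177 and 202 CPM in choroid inputs, against 44.8, 32.4 and 24.6 CPM in retina positives and 1.86, 1.18 and 0.924 CPM in retina inputs. All the choroid levels were far above the retina ones in both fractions, with a positive part of 6.30 and an input part of 7.25, and the difference was -0.95 ± 0.38 (adjusted p = 0.0719). It passed the threshold, as lower, in 8 of 21 alternative analyses, those without choroid positive 421, retina input 421 or retina positive 960 among them. Nrp1, a co-receptor for VEGF and semaphorins, had a positive part of 4.29, an input part of 4.03 and a difference of 0.25 ± 0.33 (adjusted p = 0.586).

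**Figure D2:**
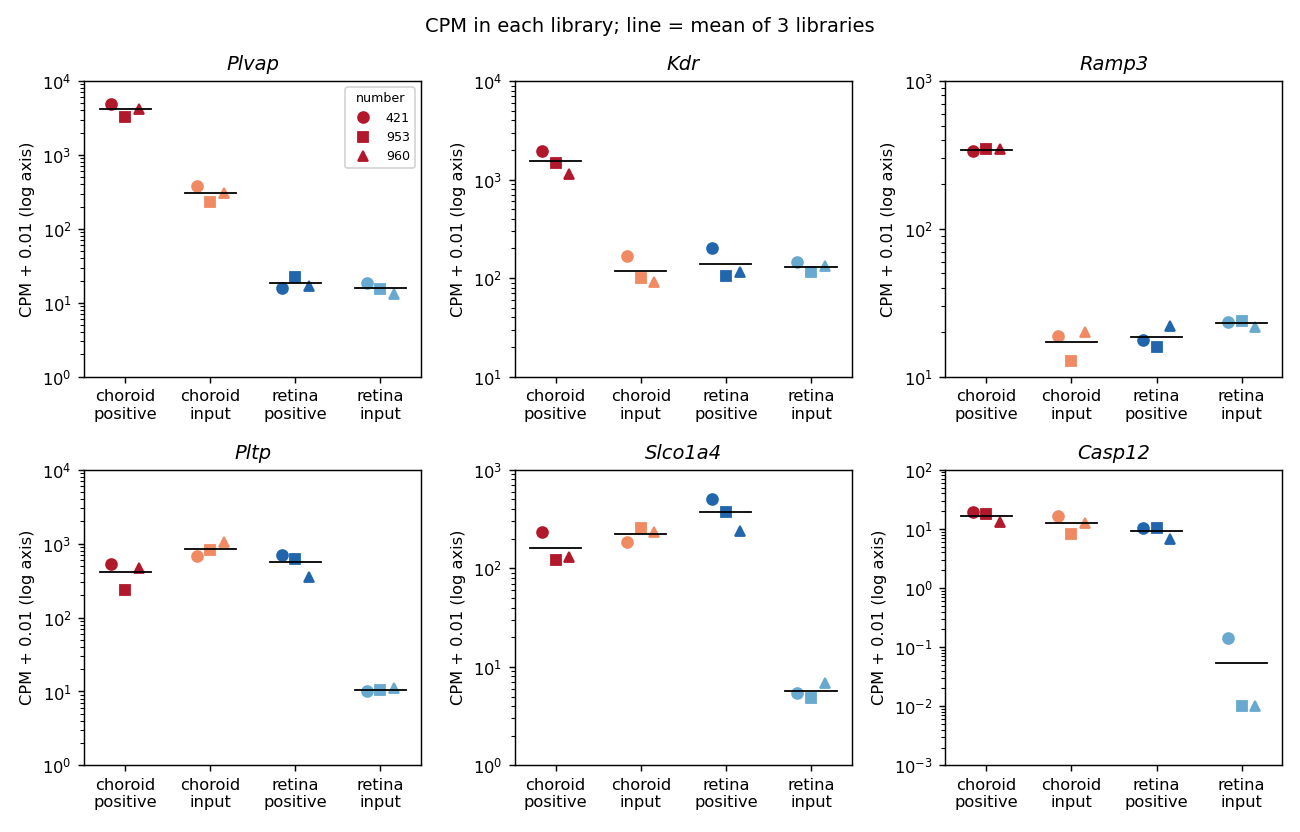
CPM plus 0.01 on a log axis in each of the 12 libraries, by group, for 6 genes; symbols give the number of the library and lines the mean of 3 libraries. Plvap, Kdr and Ramp3 are highest in choroid positives, whereas Pltp, Slco1a4 and Casp12 have low retina inputs and levels of similar size in the other groups.

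Among the VEGF receptors and ligands, 8 of 10 were measured in both tissues, 1 rose (Kdr) and 3 fell (Vegfa, Vegfb and Vegfc). Flt1, the receptor that binds VEGF with high affinity and signals weakly, was enriched in both tissues, with number-matched log2 ratios of 3.26, 3.64 and 3.34 in choroid, against 3.71, 2.89 and 1.83 in retina. Its difference was 0.45 ± 0.58 (adjusted p = 0.578), so the receptors Kdr and Flt1 were built differently in this comparison. Vegfa, the main endothelial growth factor of the eye and a product of pigment epithelium and glia, had 99.6, 102 and 132 CPM in choroid positives and 406, 536 and 459 CPM in choroid inputs, against 292, 267 and 201 CPM in retina positives and 207, 194 and 224 CPM in retina inputs. It was depleted by the pull-down in choroid, the positive and input libraries of retina overlapped, and its difference was -2.35 ± 0.26 (adjusted p = 4.39e-05). Vegfb (-1.43 ± 0.19) and Vegfc (-2.12 ± 0.42), the lymphatic growth factor, were also lower.

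Genes found in endothelium of all kinds were enriched in both tissues and, for most of them, less so in choroid. All 32 pan-endothelial genes were called higher in choroid positive than in choroid input (25.2% of all genes tested were) and 31 of 32 in retina positive than in retina input (13% of all genes). In the difference, 23 of the 32 fell and Kdr rose, with a median of -2.46. The median positive part was 1.95, with 26 members called higher (38.9% of all genes tested were) and none lower. The median input part was 4.23, with 29 members called higher (34.5% of all genes). In sum these genes had 15970 to 20000 CPM in choroid positives and 1242 to 2138 CPM in choroid inputs, against 4122 to 6997 CPM in retina positives and 303 to 349 CPM in retina inputs. Both fractions of choroid thus held more pan-endothelial RNA, and the inputs differed by the larger factor. Leaving out choroid input 421 raised the number of members called higher to 3, and leaving out retina positive 421 raised it to 2.

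Cdh5, the adherens junction protein VE-cadherin, had 502, 265 and 304 CPM in choroid positives and 74.0, 32.9 and 42.9 CPM in choroid inputs, against 254, 173 and 112 CPM in retina positives and 1.46, 1.60 and 1.41 CPM in retina inputs. Its number-matched log2 ratios were 2.76, 3.00 and 2.82 in choroid, against 7.26, 6.59 and 6.12 in retina, with no overlap, and the ratios lay apart in this direction for 27.6% of all genes tested. The difference was -4.05 ± 0.52 (adjusted p = 0.00015), with a positive part of 1.00 and an input part of 5.05. The progenitor and endothelial surface protein Cd34 (-3.78 ± 0.32), the transcription factor Fli1 (-3.65 ± 0.41), the adrenomedullin receptor partner Ramp2 (-2.98 ± 0.29) and the clotting protein Vwf (-2.89 ± 0.35) had the same build, each with a positive part above 0 and a larger input part. Ramp2 and Ramp3, which serve the same receptor, thus differed in opposite directions. Egfl7, a secreted endothelial protein, lay at the threshold, at -1.03 ± 0.37 (adjusted p = 0.0504), and passed it in 8 of 21 alternatives, those without choroid input 953 or retina positive 960 among them.

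Transporters of the blood-retina and blood-brain barriers were less enriched in choroid. Of 24 on the list, 21 were measured in both tissues, 17 fell and none rose, with a median difference of -2.32. Unlike the pan-endothelial genes, they were lower in choroid in the positive fraction too, with a median positive part of -0.96. In that part 13 members were called lower (34.3% of all genes tested were). The median input part was 1.64, with 16 called higher (34.5% of all genes tested were). In retina 15 of the 21 were enriched by the pull-down and none depleted (13% and 9.26% of all genes tested). In choroid 5 were enriched, near the share of all genes tested (25.2%), and 10 were depleted (26.2% of all genes tested were).

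Slco1a4 (chr6:141805440-141856171), an organic anion transporter of the brain barrier, had 231, 122 and 129 CPM in choroid positives and 183, 258 and 232 CPM in choroid inputs, against 510, 370 and 238 CPM in retina positives and 5.38, 4.82 and 6.80 CPM in retina inputs. The choroid fractions overlapped each other, and the retina inputs stood alone as low. The difference was -6.51 ± 0.45 (adjusted p = 1.83e-06), with a positive part of -1.21 and an input part of 5.30. The lysophospholipid transporter Mfsd2a, which carries docosahexaenoic acid into brain and retina, had 12.9, 7.79 and 6.60 CPM in choroid positives and 22.6, 23.9 and 23.9 CPM in choroid inputs, against 68.5, 32.7 and 21.3 CPM in retina positives and 0.929, 1.37 and 1.58 CPM in retina inputs. It was lower than input in the choroid pull-down and higher than input in the retina pull-down, and its difference was -6.27 ± 0.57 (adjusted p = 1.21e-05). The same opposite directions held for the thyroid hormone transporter Slco1c1 (-6.34 ± 0.62), the organic anion transporter Slc22a8 (-5.95 ± 0.46) and the large amino acid transporter Slc7a5 (-4.42 ± 0.35). Retinal pigment epithelium is a barrier epithelium with transporters of its own. Its marker list was 12 of 12 higher in choroid inputs (34.5% of all genes tested were). The part of this epithelium in these input levels was not tested.

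Junction genes fell where they were called. Of 15 junction genes, 14 were measured, 8 fell and none rose. The median difference was -1.80, the median positive part -0.76 and the median input part 2.16. Cldn5, Cdh5 and Esam on this list are on the pan-endothelial list too, whose median difference was -2.46. Without choroid input 421 a single member rose. Occludin (Ocln) had 12.9, 15.2 and 5.66 CPM in choroid positives and 17.4, 12.9 and 14.1 CPM in choroid inputs, against 81.1, 56.1 and 39.6 CPM in retina positives and 1.59, 1.84 and 3.32 CPM in retina inputs. The retina positives were the highest libraries and the retina inputs the lowest, and the difference was -5.05 ± 0.51 (adjusted p = 2.42e-05). Lsr, a protein of tricellular junctions, fell by 3.74 on the log2 scale. Claudin-5 (Cldn5), the main claudin of barrier endothelium, was unlike these in its positive part, which was 1.48, with 1404, 1203 and 1326 CPM in choroid positives and 86.4, 39.9 and 68.7 CPM in choroid inputs, against 551, 432 and 423 CPM in retina positives and 4.65, 4.63 and 4.68 CPM in retina inputs. Its RNA was higher in choroid in both fractions, and its difference was -2.32 ± 0.34 (adjusted p = 0.000372).

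Of 20 genes of barrier Wnt/beta-catenin signalling and the transcription factors beside it, 18 were measured, 13 fell and none rose. The median difference was -2.56, the median positive part -0.42 and the median input part 1.75. The median difference lay near that of the pan-endothelial list, -2.46, and Sox17 is on both lists. In the positive part 5 members were called higher and 6 lower, against 38.9% and 34.3% of all genes tested. Without choroid input 421 or choroid positive 960 a single member rose. Tnfrsf19, a target of Wnt signalling also named Troy, had 19.9, 13.5 and 15.1 CPM in choroid positives and 32.7, 39.2 and 37.9 CPM in choroid inputs, against 64.3, 43.2 and 27.0 CPM in retina positives and 2.52, 1.98 and 2.77 CPM in retina inputs. Its difference was -5.36 ± 0.42 (adjusted p = 3.7e-06). The forkhead factors Foxf2 (-4.40 ± 0.39) and Foxq1 (-4.03 ± 0.47) and the endothelial factor Sox17 (-3.71 ± 0.53) were enriched in both tissues and more so in retina. Their positive parts went separate ways, at 1.11 for Foxf2, -1.01 for Foxq1 and -0.06 for Sox17.

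**Figure D3:**
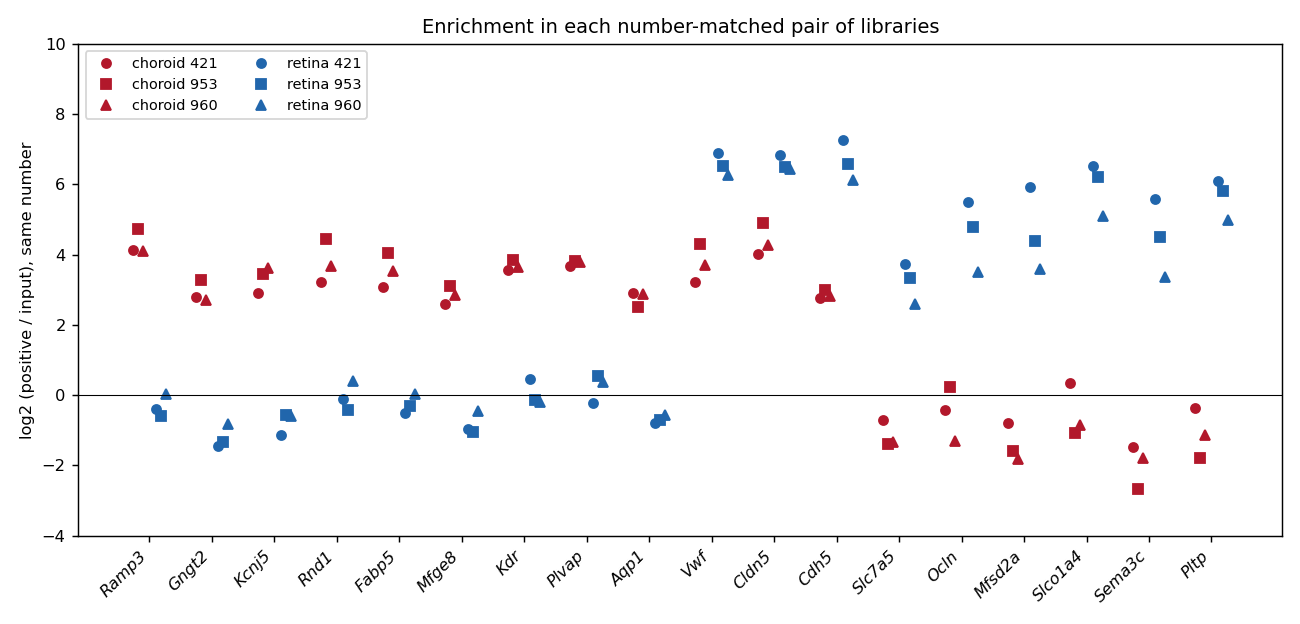
Log2 ratio of positive to input between libraries of the same number, for 18 genes, with the 3 choroid pairs left of the 3 retina pairs for each gene. For genes named as highest, as lowest or by kind of part, ratios that did not overlap between tissues were a condition of naming. Genes from Ramp3 to Aqp1 have choroid ratios above 2 and retina ratios near or below 0; Vwf, Cldn5 and Cdh5 are above 2 in both tissues and higher in retina; Slc7a5 to Pltp are near or below 0 in choroid alone.

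The promoters of 4 of these genes are shown because 2 had choroid positives as the high libraries (Kdr and Ramp3) and 2 had retina inputs as the low ones (Pltp, described next, and Slco1a4). They are RefSeq windows on GRCm38.p6 from 250 bases before to 50 after the annotated start, printed on the strand of the gene. Capitals mark the ETS core GGAAG, the letters bound by the ETS family to which the endothelial factors Fli1 and Erg belong, on either strand (CTTCC on the printed one where it lies on the other). A SOX motif (ACAAAG) and a TCF/LEF motif (ATCAAAG) were searched on both strands as well.
Kdr, chr5:75978406-75978705, minus strand: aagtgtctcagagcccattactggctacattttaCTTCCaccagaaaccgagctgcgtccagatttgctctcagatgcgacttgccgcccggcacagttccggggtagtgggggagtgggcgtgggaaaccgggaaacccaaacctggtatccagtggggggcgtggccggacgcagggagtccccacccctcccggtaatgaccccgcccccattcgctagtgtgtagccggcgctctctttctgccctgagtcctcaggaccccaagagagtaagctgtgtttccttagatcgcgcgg
Ramp3, chr11:6658283-6658582, plus strand: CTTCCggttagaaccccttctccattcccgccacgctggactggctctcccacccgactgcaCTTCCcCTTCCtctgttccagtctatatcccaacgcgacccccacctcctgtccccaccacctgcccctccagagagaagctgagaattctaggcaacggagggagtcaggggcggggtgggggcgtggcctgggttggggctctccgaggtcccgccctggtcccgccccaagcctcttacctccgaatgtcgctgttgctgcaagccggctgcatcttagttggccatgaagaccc
Pltp, chr2:164857659-164857958, minus strand: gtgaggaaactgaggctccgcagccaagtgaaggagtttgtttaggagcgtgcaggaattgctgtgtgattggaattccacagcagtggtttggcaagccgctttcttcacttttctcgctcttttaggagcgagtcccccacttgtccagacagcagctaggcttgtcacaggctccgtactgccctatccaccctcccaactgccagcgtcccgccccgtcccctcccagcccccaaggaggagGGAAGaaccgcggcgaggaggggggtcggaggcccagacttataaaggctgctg
Slco1a4, chr6:141856171-141856470, minus strand: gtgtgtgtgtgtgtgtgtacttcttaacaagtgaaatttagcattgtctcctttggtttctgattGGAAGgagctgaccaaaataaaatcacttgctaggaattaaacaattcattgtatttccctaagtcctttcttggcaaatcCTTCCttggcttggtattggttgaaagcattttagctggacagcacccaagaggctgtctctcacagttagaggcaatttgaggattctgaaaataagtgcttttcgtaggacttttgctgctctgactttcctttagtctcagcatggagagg
The ETS core occurred 1 time in Kdr, 3 times in Ramp3, 1 time in Pltp and 2 times in Slco1a4, and neither of the other motifs was found in the 4 windows. The ETS core is common at this length. It was present in 75.2% of the windows of genes higher in choroid and 72.4% of those of genes lower in choroid, against 75.4% of all tested genes with a window (8585) and 71.1% of all windows in the table (27025). The TCF/LEF motif was in 1.9% of the windows of higher genes, 2.4% of those of lower genes and 2.5% of those of all tested genes, and the SOX motif in 12.6%, 13.3% and 12.7%. No test of these shares was made.

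Caveolar and lipid-handling genes were split. Of 17 on the list, 15 were measured, 7 rose and 5 fell, with differences from -6.76 to 3.78 and a median of 0.36. The lowest was Pltp (chr2:164839518-164857708), the phospholipid transfer protein of plasma lipoproteins, with 523, 238 and 476 CPM in choroid positives and 672, 819 and 1042 CPM in choroid inputs, against 713, 612 and 354 CPM in retina positives and 10.2, 10.6 and 10.98 CPM in retina inputs. The positive fractions of the 2 tissues overlapped, and the retina inputs stood far below all other libraries. The difference was -6.76 ± 0.47 (adjusted p = 1.89e-06), with a positive part of -0.44 (adjusted p = 0.2) and an input part of 6.32 (adjusted p = 1.02e-08). Within choroid, Pltp was lower in positive than in input (-1.03, adjusted p = 0.0122), and within retina it was higher (5.72, adjusted p = 8.13e-08).

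The highest of the lipid list was Fabp5, a fatty acid-binding protein, with 1050, 1596 and 1626 CPM in choroid positives and 125, 96.4 and 141 CPM in choroid inputs, against 13.7, 14.2 and 21.2 CPM in retina positives and 19.6, 17.6 and 20.6 CPM in retina inputs. The choroid fractions were both above the retina ones, and the retina fractions overlapped. Its difference was 3.78 ± 0.33 (adjusted p = 8.45e-06), with a positive part of 6.43 and an input part of 2.65. The cholesterol exporter Abcg1 (2.68 ± 0.25) rose with an input part of -1.96, and the caveolar protein Sdpr, also named cavin-2, fell by 4.33 with an input part of 5.87. Macrophages also make Fabp5 and Abcg1. The 5 macrophage genes measured in both tissues summed to 14980 to 23010 CPM in choroid positives and 1780 to 2941 CPM in choroid inputs, against 90.8 to 357 CPM in retina positives and 23.9 to 31.7 CPM in retina inputs, and their part in these levels was not tested.

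Casp12 (chr9:5345476-5373034), a caspase of the endoplasmic reticulum, had the lowest fitted difference among the markers, and its size cannot be read as a fold. It had 19.1, 17.6 and 13.2 CPM in choroid positives and 16.4, 8.28 and 12.7 CPM in choroid inputs, against 10.4, 10.5 and 6.74 CPM in retina positives and 0.133, 0 and 0 CPM in retina inputs. The 3 retina inputs together held 2 counts, against 221 in the retina positives, 157 in the choroid positives and 444 in the choroid inputs. The ratio of positive to input was 1.34 in choroid (95% counting interval 1.11 to 1.61), against 239 in retina (65.3 to 1980), where the intervals cover counting error only. The fitted difference of -7.11 ± 0.71 (adjusted p = 2.23e-05) depends on the prior count. The positive part was 0.89 (adjusted p = 0.0281), so that the positive fractions differed little beside the inputs. Of the 18 caspase and endoplasmic reticulum stress genes, 13 were measured, 3 rose and 2 fell (Casp12 and Casp8), with a median difference of 0.30, counts that lie near the shares of all genes tested (13.8% higher and 18.4% lower). Casp8, the initiator caspase of death receptors, had a difference of -2.38 ± 0.40 (adjusted p = 0.000902). The 3 that rose included Edem1 (0.90 ± 0.25, adjusted p = 0.016), and none of them passed under scaling by library size. A single member rose without choroid input 421 or 953, choroid positive 953, retina input 421, 953 or 960, or retina positive 953.

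Arterial and venous genes fell more often than they rose. Of 18 arterial genes, 16 were measured, 2 rose and 8 fell, with a median of -0.83. Of 12 venous genes, 7 were measured, 6 fell and none rose, with a median of -1.63. Vwf is on both the venous and the pan-endothelial list, and the pan-endothelial median was -2.46. Mgp, a matrix protein that blocks calcification, had 853, 2192 and 1578 CPM in choroid positives and 516, 351 and 484 CPM in choroid inputs, against 129, 160.2 and 252 CPM in retina positives and 1.72, 1.94 and 3.15 CPM in retina inputs. Both choroid fractions were above both retina fractions, and the difference was -4.53 ± 0.52 (adjusted p = 6.24e-05). The chemokine Cxcl12 differed by -4.59 ± 0.49, with positive fractions that overlapped (positive part -0.08) and an input part of 4.51. Of 13 basement membrane genes, 12 were measured, 7 fell and none rose, with a median of -1.14. Lama4, a laminin chain of vessel walls, differed by -3.07 ± 0.52, and Nid1, which links laminin to collagen, by -2.86 ± 0.59.

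**Figure D4:**
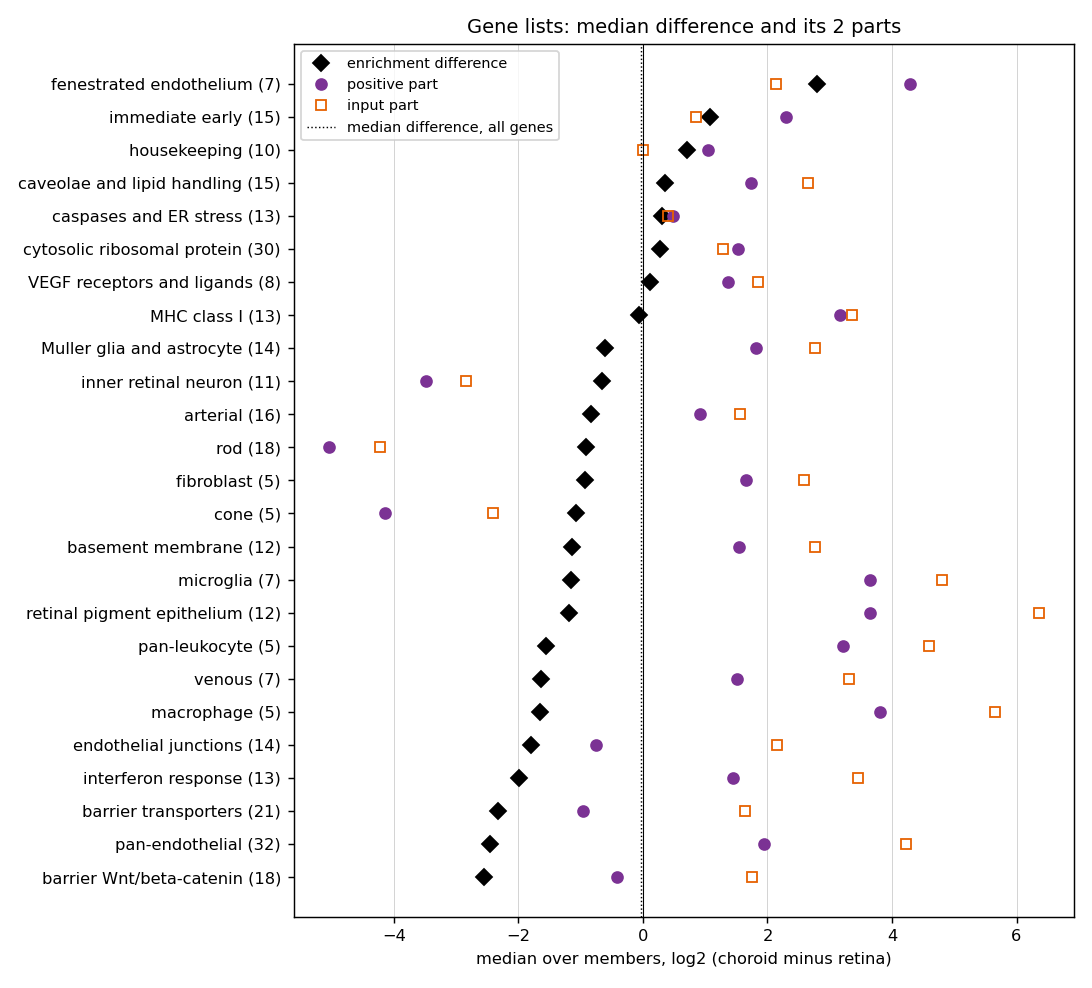
Median over the members of each list of the enrichment difference (diamonds), its positive part (filled circles) and its input part (open squares), on the log2 scale, for lists with at least 5 members in both tables (number of these in brackets). The fenestrated list has the highest median difference, 2.80, and the barrier Wnt/beta-catenin list the lowest, -2.56; the dotted line is the median of all genes, -0.03.

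Immediate early genes, which cells switch on within minutes of a stimulus, rose more often than they fell. Of 17 on the list, 15 were measured, 10 rose and 2 fell, with a median of 1.07. The AP-1 subunit Jun had 437, 505 and 495 CPM in choroid positives and 131, 94.2 and 96.7 CPM in choroid inputs, against 81.0, 56.1 and 57.3 CPM in retina positives and 57.1, 62.8 and 58.6 CPM in retina inputs. The choroid positives were the highest libraries and the retina fractions overlapped, with a difference of 2.04 ± 0.25 (adjusted p = 0.0001). Ier2 differed by 2.21 ± 0.24. The 2 that fell were Klf2 and Klf4, factors that laminar shear stress induces in endothelium. Klf2 had 942, 934 and 931 CPM in choroid positives and 98.7, 68.3 and 93.2 CPM in choroid inputs, against 175, 128 and 125 CPM in retina positives and 1.73, 2.55 and 2.23 CPM in retina inputs. Its difference was -2.59 ± 0.28 (adjusted p = 4.36e-05), and that of Klf4 was -3.54 ± 0.40, both with input parts above 5 on the log2 scale.

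MHC class I genes were higher in choroid in both fractions. The H2 genes among them are close copies of each other, and the labels do not say how reads shared by such copies were counted. All 13 were called higher in the positive part and in the input part (38.9% and 34.5% of all genes tested were). The medians of the parts were 3.16 and 3.36, and the median difference was -0.07, with 2 higher and 1 lower. The light chain B2m was the lower one (-1.83 ± 0.29, adjusted p = 0.000558), and Tapbp, which helps to load peptides, was among the higher ones (1.04 ± 0.21, adjusted p = 0.00301). Without choroid input 953 or without choroid positive 953, 2 members were lower. Of 14 interferon response genes, 13 were measured, 9 fell and none rose, with a median of -1.99. Ifitm3, an antiviral membrane protein, differed by -3.22 ± 0.36, and Ifit1, which binds viral RNA, by -4.04 ± 0.43. Without retina positive 421 a single interferon member rose. Leukocytes make these RNAs too, and 5 pan-leukocyte genes summed to 1148 to 1449 CPM in choroid positives and 184 to 365 CPM in choroid inputs, against 71.8 to 171 CPM in retina positives and 16.8 to 22.8 CPM in retina inputs; their part was not tested.

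Several of the most different genes belonged to no vessel list. Among the highest, Gngt2, the G protein gamma subunit of cones, had 119, 171 and 216 CPM in choroid positives and 17.1, 17.4 and 32.6 CPM in choroid inputs, against 21.4, 21.5 and 27.7 CPM in retina positives and 58.7, 54.3 and 48.7 CPM in retina inputs. It was above input in the choroid pull-down and below input in the retina pull-down, and its difference was 4.09 ± 0.38 (adjusted p = 1.26e-05). Of 12 cone genes 5 were measured, Gngt2 alone rose, and 3 fell, Thrb (-1.08 ± 0.21), Gnat2 (-2.15 ± 0.47) and Pde6c (-2.84 ± 0.85), with a list median of -1.08. The positive part was called lower for the other 4 and the input part for all 5 (34.3% and 34.4% of all genes tested). Pde6c lost its call with DESeq2 and without choroid positive 421 or 953. Mfge8, a secreted glycoprotein that bridges apoptotic cells to phagocytes, had the same opposite directions (3.65 ± 0.28, adjusted p = 3.7e-06). The potassium channel Kcnj5 (4.05 ± 0.43), the small GTPase Rnd1 (3.95 ± 0.37), the lipid droplet protein Hilpda (3.58 ± 0.25) and gamma-synuclein (Sncg, 3.52 ± 0.28) were also among the highest. Lars2, a mitochondrial leucyl-tRNA synthetase, had 1393, 190.0 and 255 CPM in choroid positives and 100.2, 153 and 136 CPM in choroid inputs, against 136, 140.4 and 78.1 CPM in retina positives and 360, 116 and 516 CPM in retina inputs. Its choroid positive 421 was high and its retina inputs were scattered, so its difference of 3.73 ± 0.94 (adjusted p = 0.00942) was the least even of the highest, ranging from 2.11 to 4.13 over the alternatives.

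Among the lowest, the secreted semaphorin Sema3c had 115, 86.4 and 144 CPM in choroid positives and 316, 555 and 499 CPM in choroid inputs, against 131, 99.0 and 59.6 CPM in retina positives and 2.52, 4.20 and 5.66 CPM in retina inputs. The positive fractions overlapped, and the difference of -6.53 ± 0.49 (adjusted p = 3.23e-06) lay in an input part of 6.77. The lipocalin Apod (-6.33 ± 0.53) was higher in choroid in both fractions, with an input part of 9.64 and a positive part of 3.31. The membrane protein Mal (-6.32 ± 0.59), the 1 of 4 measured oligodendrocyte genes that fell and also a marker of some epithelia, the antibacterial protein Pglyrp1 (-6.60 ± 0.84) and the T-box factor Tbx1 (-6.44 ± 0.55) had positive parts between -0.97 and 0.04. Of the 4 oligodendrocyte genes, 3 fell without choroid positive 421 and under the number as a block within tissue, and 1 rose without choroid input 421. Atp10a, a phospholipid flippase, was an exception in that its positive part was large as well, at -3.04, beside an input part of 2.80 and a difference of -5.83 ± 0.50. For Sema3c, Tbx1 and Atp10a the retina positive library 421 was the highest of its group and 960 the lowest. This order was not particular to them. It held for other named genes too, Cdh5, Mfsd2a and Slc7a5 among them, but not for Apod, Mal or Mgp. A call in every analysis that left out 1 library was a condition for naming the 6 genes from Sema3c to Atp10a. It therefore gives no further support to them.

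Some higher genes differed in input alone. Mmp24, a membrane-bound matrix metalloproteinase expressed by neurons, had 25.8, 33.9 and 33.0 CPM in choroid positives and 3.01, 5.18 and 1.23 CPM in choroid inputs, against 29.3, 33.8 and 29.6 CPM in retina positives and 32.6, 33.3 and 32.3 CPM in retina inputs. The choroid inputs were the only low libraries, with a difference of 3.43 ± 0.45 (adjusted p = 0.000173) and a positive part of -0.01. The adrenergic receptor Adrb1 (3.11 ± 0.39), the transcription factor Mef2c (2.54 ± 0.24) and the pseudokinase Trib2 (2.34 ± 0.24) had the same build, with positive parts from -0.21 to 0.37. In the other direction, the collagen gene Col6a1 (-4.05 ± 0.61), the glycine transporter Slc6a9 (-1.96 ± 0.20) and the eye field factor Pax6 (-1.80 ± 0.23) fell in the positive part with an input part that was not called.

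Markers of other cells were measured in the same way. Of 16 macrophage genes, 9 were listed in choroid alone, 5 in both tables, and of these 1 rose (Lyve1) and 2 fell. Lyz2, a lysozyme of macrophages and neutrophils, had 12770, 13260 and 19590 CPM in choroid positives and 1746, 1179 and 1993 CPM in choroid inputs, against 32.5, 71.4 and 111 CPM in retina positives and 3.45, 2.08 and 3.75 CPM in retina inputs. It was enriched by both pull-downs, with a difference of -1.32 ± 0.58 (adjusted p = 0.0977). Lyve1, made by some macrophages and by lymphatic endothelium, was uneven, with 23.3, 155 and 34.9 CPM in choroid positives and 5.93, 14.2 and 8.73 CPM in choroid inputs, against 5.04, 9.10 and 14.3 CPM in retina positives and 9.49, 12.2 and 13.3 CPM in retina inputs (difference 3.17 ± 0.84, adjusted p = 0.0124). The receptor for colony-stimulating factor Csf1r had 441, 291 and 444 CPM in choroid positives and 307, 265 and 328 CPM in choroid inputs, against 30.8, 128 and 160 CPM in retina positives and 9.62, 10.7 and 11.6 CPM in retina inputs (difference -2.94 ± 0.58, adjusted p = 0.00248). Retina positive 421 was the low library for Csf1r and for the microglial gene Tmem119 (8.96, 50.0 and 51.8 CPM in retina positives). Of 13 microglial genes, 7 were measured and 2 fell, Tmem119 (-3.16 ± 0.88) and the signalling adaptor Tyrobp (-2.07 ± 0.54), with none higher. Without retina positive 421, 6 microglial and 4 macrophage members fell.

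Of 14 genes of retinal pigment epithelium, 12 were measured, 6 fell and none rose, with a median of -1.18. All 12 were depleted by the choroid pull-down (26.2% of all genes tested were). Stra6, the receptor for retinol-binding protein, had 196, 104 and 282 CPM in choroid positives and 706, 847 and 943 CPM in choroid inputs, against 144, 102 and 71.4 CPM in retina positives and 8.36, 8.50 and 11.8 CPM in retina inputs. It was depleted in choroid and enriched in retina, with a difference of -5.57 ± 0.48 (adjusted p = 8.16e-06). The homeobox factor Otx2 differed by -1.80 ± 0.33 (adjusted p = 0.00147). Without choroid positive 421 a single pigment epithelium member rose. Of 10 melanocyte genes, 7 were listed in choroid alone and 3 were measured in both tissues. The melanosome exchanger Slc24a5 fell (-2.63 ± 0.20), and the other two were not called, with differences of at most 0.09.

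All 18 rod genes were measured, and 1 fell, with a median difference of -0.91. Every one was called lower in choroid in both parts, with medians of -5.04 in the positive part and -4.22 in the input part. Of all genes tested, 34.3% were called lower in the positive part and 34.4% in the input part. The member that fell was Slc24a1, a cation exchanger of the rod outer segment, at -1.37 ± 0.45 (adjusted p = 0.0344). With the number as a block within tissue 11 rod genes fell. Without choroid positive 960 the count was 2, and it was 0 without choroid input 953 or 960, choroid positive 953, any 1 of the retina inputs, or retina positive 953 or 960. Of 11 inner retinal neuron genes 1 rose and 3 fell, and of 14 genes of Muller glia and astrocytes 1 rose and 3 fell, counts that lie near the shares of all genes tested (13.8% higher and 18.4% lower). The member of the glial list that rose was Apoe, an apolipoprotein that macrophages make too, at 2.20 ± 0.50 (adjusted p = 0.00593). Under the same block 6 members of each of these lists fell. The inner retinal list had 5 lower without choroid input 960 and 2 higher without choroid positive 421 or 960, and the glial list had 5 lower without choroid positive 421 and 2 higher without choroid input 421. Rgs5, the pericyte gene noted above, differed by -5.57 ± 1.54 (adjusted p = 0.0153), and by -2.90 (adjusted p = 0.0664) without retina positive 421.

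Housekeeping genes were not level either. Of 10 housekeeping genes, 5 rose and none fell, with a median of 0.70. Actin (Actb) had 4203, 5296 and 4735 CPM in choroid positives and 1418, 1152 and 1287 CPM in choroid inputs, against 546, 479 and 475 CPM in retina positives and 346, 306 and 259.5 CPM in retina inputs, a difference of 1.17 ± 0.29 (adjusted p = 0.00859). Hprt, a purine salvage enzyme, differed by 1.65 ± 0.27. The 30 cytosolic ribosomal protein genes had a median of 0.27, with 2 higher and none lower, below the shares of all genes tested (13.8% and 18.4%). Scaling by library size left 2 housekeeping genes higher and no ribosomal ones. Leaving out choroid positive 953, choroid positive 960, retina input 953 or retina positive 953 left 3 housekeeping genes higher, and 9 of the 12 omissions of a library left no ribosomal gene higher.

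List members seen in a single table mark where the comparison could not be made. Of 459 distinct members, 330 were in both tables, 69 in choroid alone, 29 in retina alone and 31 in neither. The fenestrated marker Esm1 was listed in choroid alone, with 360 to 579 CPM in choroid positives and 19.9 to 54.5 CPM in choroid inputs. The amino acid and thiamine transporters Slc38a5, Slc7a3 and Slc19a3 were listed in retina alone, with a summed level of 43.3 to 49.1 CPM in retina positives and 5.52 to 8.71 CPM in retina inputs. All 8 skeletal muscle genes and 4 of 8 mast cell genes were listed in choroid alone. Esm1 and these transporters were chosen after their values were seen.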

How the data were processed

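The authors deposited 1 table per tissue. Its raw columns hold expected counts per gene, which the authors deposited unrounded (72.0% of choroid and 91.5% of retina entries were not whole within 0.001); they were rounded for the fit. The normalized columns are log2 values that the authors centred on the median input of the tissue; they entered 1 alternative only. The listing rule, per the file headers, is a raw value of at least 50 in every library of at least 1 of the fractions. The submitters' processing notes name DESeq and mm10; no aligner, counter or use of strand is named, so overlapping and antisense genes are uncertain, although the kit marks strand.

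Counts of the 10704 joined genes were fitted in edgeR 4.0.16 (R 4.3.3) with TMM factors and 1 mean for each of the 4 groups, which left 8 residual degrees of freedom for the quasi-likelihood test (filterByExpr removed 0 genes), with Benjamini-Hochberg adjustment over all genes and calls at an adjusted p under 0.05. CPM use the TMM-scaled totals, and the ± values are standard errors of the fitted difference. On simulated counts for 10704 genes, the test of the difference called 46 of 50 genes made lower by 2 on the log2 scale and 49 of 50 made higher by 2, but 9 of 50 made lower by 1 and 16 of 50 made higher by 1, and it called 10 unchanged genes. The simulated libraries were independent, and each gene had the spread of the trend over all genes. They held no outlying library and no tie between libraries of the same number, so these rates need not hold for the real counts.

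Alternatives were DESeq2 1.42.0, its size factors in edgeR, library-size scaling, limma 3.58.1 on the deposited log2 values, a minimum of 10 CPM (10580 genes), all 18 libraries, the library number as a block, both choroid libraries of 421 left out, and each library left out in turn. Same-numbered positive and input libraries deviated together in choroid (r of deviations 0.65, 0.22 and 0.50) but not in retina (0.09, 0.07 and -0.01), so the numbers paired the samples in choroid by these data alone. The main fit held no block. Its standard errors and adjusted p-values therefore treat the libraries of a number as independent, also in choroid.

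The members, the 32 lists and the tests were chosen with earlier results of these data known. Genes were named by rule: the 4 given markers, the 12 highest and 12 lowest differences called in every fit without 1 library, up to 5 genes per direction and kind of part, and, for each list, up to 4 called and 2 uncalled members. The text draws on these genes, and some of them are not reported here. Promoters come from RefSeq tables on GRCm38.p6.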

Additional observations from a re-analysis of the deposited data

Results flagged for a closer look

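The test of the difference between tissues was itself the comparison here, and it called 1475 genes higher and 1966 lower in choroid. Among the genes named above, the following passed it and were in addition called in opposite directions by the pull-downs of the 2 tissues. Enriched in choroid and depleted in retina were Gngt2 (difference 4.09), Mfge8 (3.65), Abcg1 (2.68) and Trib2 (2.34). Depleted in choroid and enriched in retina were Pltp (-6.76), Sema3c (-6.53), Slco1c1 (-6.34), Apod (-6.33), Mfsd2a (-6.27), Slc22a8 (-5.95), Stra6 (-5.57), Tnfrsf19 (-5.36), Slc7a5 (-4.42), Col6a1 (-4.05) and Slc24a5 (-2.63). Over all genes, 70 of the 1475 and 167 of the 1966 had such opposite directions. Groups of 3 libraries were not tested for outlying values.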

How the results depend on the processing

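Scaling by library size alone gave 640 genes higher and 3003 lower in choroid, against 1475 and 1966 with TMM, and moved the median difference of all genes to -0.34, against -0.03; the cause was not tested. No other alternative moved the counts by over 1.5 times. Leaving out 1 library gave 999 to 1616 higher and 1501 to 2253 lower, 3881 to 4203 higher and 3476 to 3788 lower in the positive part, and 3374 to 3847 higher and 3333 to 3754 lower in the input part. The replicate block within tissue gave 1961 higher and 2459 lower, and the block on the number alone 1714 and 2128; among the genes named, the blocks changed the calls of Egfl7, Igfbp3 and Lyz2 alone. Of the differences of named genes, that of Nrp1 turned to -0.07 under library-size scaling, uncalled there too. Edem1 lost its call under library-size scaling and without choroid input 953, and Rgs5 with limma and without retina positive 421. Lyz2 gained one in 5 alternatives, one of them without retina positive 421. The choroid positives held the fewest counts, 2544974 to 4427582 per library, and Casp12 had 2 counts in the retina inputs, which leaves the size of its difference open to counting error. Other named genes had few counts over the retina inputs as well. Among them were Tbx1 (16.5), Fli1 (25), Sox17 (30.6), Foxf2 (38), Apod (40.7), Pglyrp1 (58.5), Mfsd2a (72) and Cdh5 (82).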
